A study of Rattus norvegicus with 26 samples.

Results

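Uncoupling proteins are carriers of the mitochondrial inner membrane that can let protons back across it, so that respiration runs without making ATP. UCP1 does this in brown and beige fat, where it produces heat, while UCP2 and UCP3 are found in many tissues and in muscle, respectively, and are known to respond to fatty acids. The other genes described here are tied to the thermogenic state of fat: CIDEA is a lipid droplet protein that is abundant in brown fat, DIO2 is the deiodinase that activates thyroid hormone inside the cell, and PGC-1β, the product of Ppargc1b, is a coactivator that drives mitochondrial biogenesis. In cold-exposed rodents Ucp1 and Dio2 are induced through noradrenaline, β-adrenergic receptors and cAMP.

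The members were Ucp1, Ucp2, Ucp3, Cidea, Dio2 and Ppargc1b, chosen by name. All 6 genes had a probe set annotated to that symbol alone on the Affymetrix rat array, with 7 probe sets in all because Ucp3 had 2. The probe sets are 1387033_at for Ucp1, 1368669_at for Ucp2, 1382958_at and 1387681_at for Ucp3, 1389179_at for Cidea, 1369778_at for Dio2 and 1392715_at for Ppargc1b. They stand among 31042 rat probe sets and 14217 genes. Ucp2 and Ucp3 are listed on chromosome 1, Ucp1 on chromosome 19, Dio2 on chromosome 6, and Cidea and Ppargc1b on chromosome 18.

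The samples came from inbred male Long-Evans (Turku/AB) rats of 11 to 15 weeks, kept at 21.5 °C. On day 0 all rats, controls included, were dosed with corn oil (4 mL/kg). Inguinal white adipose tissue was taken on day 4 from 4 control and 4 feed-restricted rats, liver on day 4 from 4 control and 4 restricted rats, and liver on day 10 from 5 control and 5 restricted rats. The 4-day restriction gave 18, 12, 9 and then 6 g of feed per day, and the 10-day restriction let the rats eat freely on day 0 and then cut the portion in daily steps from 16 g through 11 g and 6 g to 1 g. Control rats had no feed restriction. Values are log2 expression values of each array, and a difference is restricted minus control on that scale. The 3 sets were pre-processed apart by the submitters, so levels were set against the other probe sets of the same array and tested within a set only.

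The labelled tissues carried their markers. In adipose tissue none of 9 measured adipocyte markers was near background, and Adipoq was between 13.94 and 14.18, whereas it was at 2.17 to 2.25 in all liver arrays. Of 9 measured hepatocyte markers 6 were near background in adipose tissue, Apoa1 among them, but Alb was at 13.15 to 14.59. Near background here means that both group means lay below the median of all probe sets of the set, which was 4.06 for the adipose arrays, 3.21 for those of day 4 liver and 3.28 for those of day 10 liver. Of 13 measured skeletal muscle markers 11 were near background in adipose tissue. Myl1, a muscle myosin light chain, was not, at 4.36 to 6.40 in controls and 4.13 to 4.46 in restricted rats (adjusted p = 0.7 by limma). In adipose tissue the 4 control arrays had been scanned before the 4 restricted arrays on the same day. The scanner records of the restricted arrays also held a protocol entry, and those of the controls did not. Scan order, this entry and feeding group therefore cannot be told apart. The liver arrays of day 10 were scanned on 2 days, each holding both groups. Within each of these days all controls had been scanned before all restricted arrays, so scan order and feeding group cannot be told apart there either.

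The 250 bases before the annotated start of the 3 uncoupling protein genes are shown because their levels differed. Ucp1 was near background on all arrays, Ucp3 was above the median in fat and near background in liver, and Ucp2 was above background in every set. Ucp2 and Ucp3 are neighbours on the plus strand of chromosome 1. The sequences are from RefSeq for GRCr8, all 6 members had an entry, and capitals mark matches to the searched motifs. The motifs were TATAAA, the core of a TATA box; GGGCGG, the core of a GC box; AGGTCA, a nuclear receptor half-site; and TGACGTCA, the cAMP response element. They were searched on both strands, and no matches of different motifs overlapped in these windows.
Ucp1, chr19:41721422-41721671, minus strand: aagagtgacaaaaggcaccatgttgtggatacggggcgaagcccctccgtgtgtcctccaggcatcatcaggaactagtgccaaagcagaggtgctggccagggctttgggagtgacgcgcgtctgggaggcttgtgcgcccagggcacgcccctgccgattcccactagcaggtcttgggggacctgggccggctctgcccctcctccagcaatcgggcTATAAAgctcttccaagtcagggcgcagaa
Ucp2, chr1:164251123-164251372, plus strand: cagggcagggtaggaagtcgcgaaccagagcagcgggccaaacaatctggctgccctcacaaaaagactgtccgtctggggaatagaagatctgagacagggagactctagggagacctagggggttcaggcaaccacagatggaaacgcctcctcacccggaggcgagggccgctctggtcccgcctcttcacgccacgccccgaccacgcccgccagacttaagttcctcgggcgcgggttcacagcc
Ucp3, chr1:164227660-164227909, plus strand: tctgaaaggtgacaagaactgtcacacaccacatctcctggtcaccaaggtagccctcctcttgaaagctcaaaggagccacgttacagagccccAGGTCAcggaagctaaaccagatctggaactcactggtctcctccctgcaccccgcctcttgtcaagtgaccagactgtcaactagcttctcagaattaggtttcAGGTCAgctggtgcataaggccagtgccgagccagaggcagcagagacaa
Ucp1 held TATAAA once, 30 bases before the start. Ucp3 held AGGTCA at 155 and at 50 bases before the start. Ucp2 held none of the 4 motifs. Among 33469 promoter windows of this length, TATAAA was found in 12.9%, GGGCGG in 30.5%, AGGTCA in 14.1% and TGACGTCA in 1.59%. A match describes the letters only.

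In adipose tissue no member passed the test at day 4. The background was low as well, since 17 of 31042 probe sets, or 0.0548%, had an adjusted p below 0.05, with 0.0352% of genes called higher and 0.0703% called lower in restricted rats. At an unadjusted p below 0.05 there were 2387 probe sets, or 7.69%. The members fell into those above background in inguinal fat, which were Ucp2, Ucp3, Cidea and Ppargc1b, and those near background, which were Ucp1 and Dio2. Of the former Ucp3 lay closest to the median. All adjusted p-values here come from limma, adjusted by Benjamini-Hochberg across the 31042 probe sets.

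Ucp1, the heat-producing uncoupling protein, was near background on every array. Its values in adipose tissue were 2.22, 2.22, 2.22 and 2.16 in controls and 2.26, 2.23, 2.22 and 2.19 in restricted rats. These placed it at the 15.1 to 15.3 percentile of the probe sets of its array, and no fold change is given for a probe set at this level. In liver, where the gene is not known to be active, Ucp1 read 2.31 to 2.39 at day 4 and 2.28 to 2.33 at day 10. On those arrays it stood at the 17.2 to 19.7 percentile. Dio2 was likewise near background in fat, at 2.23 to 2.28 in controls and 2.25 to 2.31 in restricted rats, and read 2.52 to 2.61 in liver. A probe set at the floor sets no bound on RNA below it, so a change in Ucp1 or Dio2 was not detectable with these probe sets.

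**Figure D1:**
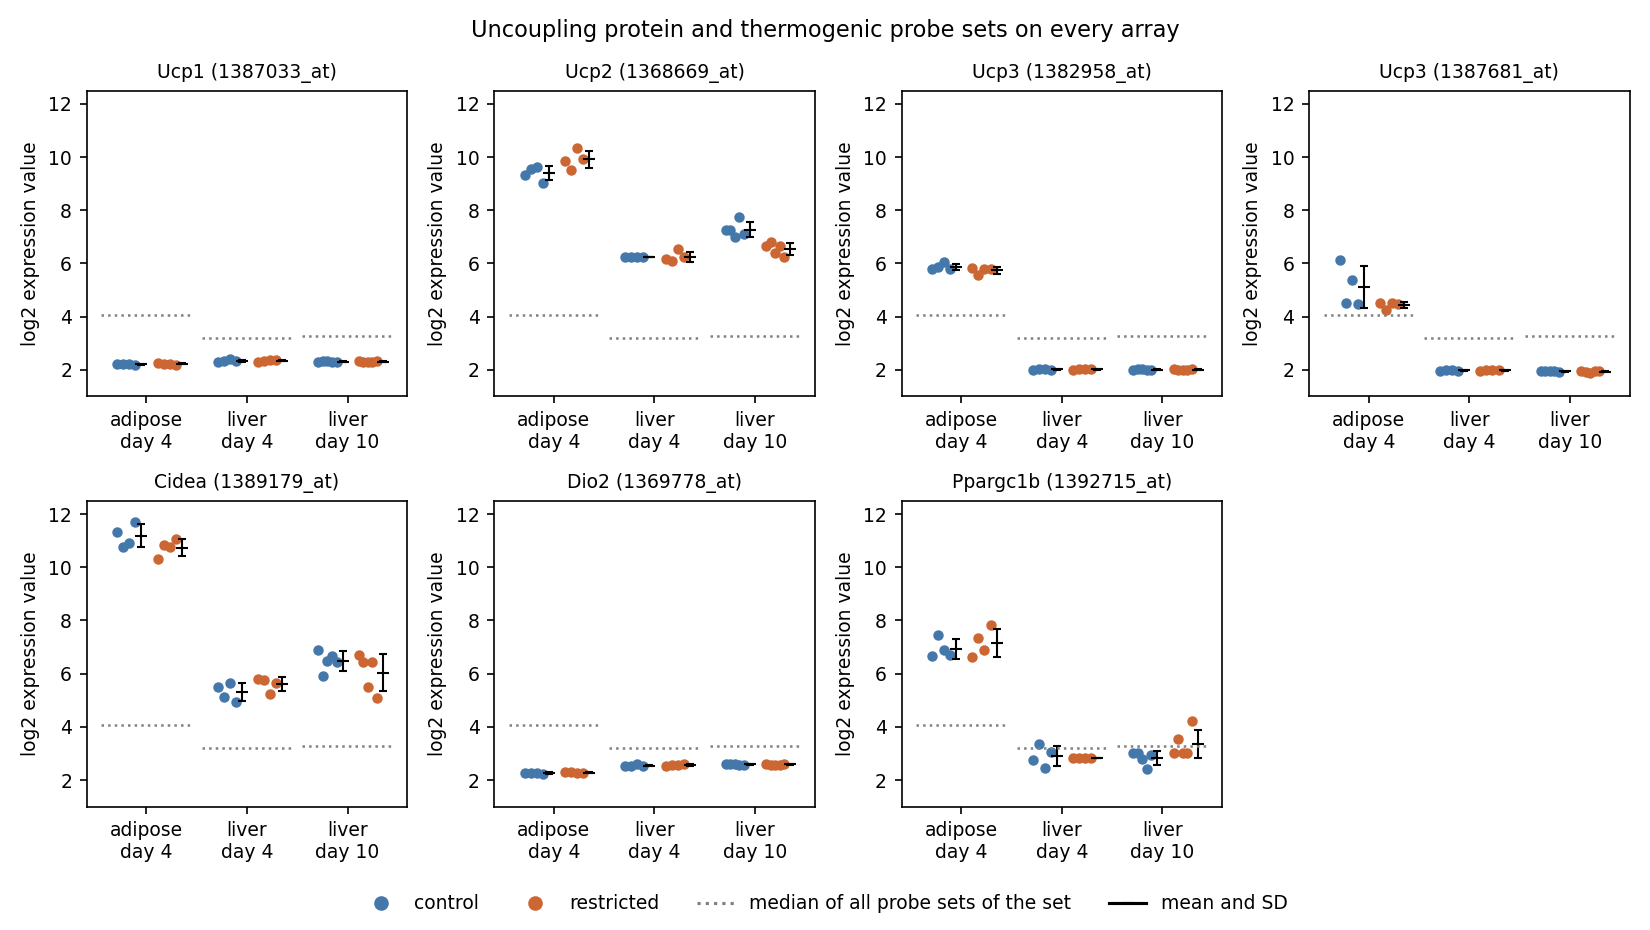
Log2 expression values of the 7 member probe sets on all 26 arrays, by tissue, day and feeding group. Points are arrays, the black mark and bar are the mean and SD of a group, and the dotted line is the median of all probe sets of that set. Ucp1 and Dio2 lie below the dotted line in every set, Cidea and Ucp2 above it in every set, and only in liver at day 10 do the control and restricted points of Ucp2 separate.

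Ucp2, the widely expressed member of the family, was well above the median in fat. Control rats read 9.33, 9.56, 9.62 and 9.04, and restricted rats 9.85, 9.53, 10.33 and 9.94. Of the 4 restricted arrays 3 lay above every control, and restricted rat 2 lay among the controls. The difference was 0.53 (SE 0.19, 95% interval 0.07 to 0.98, n = 4 and 4 rats), but after adjustment over all probe sets it did not pass (unadjusted p = 0.03, adjusted p = 0.56, limma). The percentile of Ucp2 on its array was 80.8 to 87.2 in controls and 86.9 to 91.9 in restricted rats.

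Ucp3, which in rats is mainly a muscle gene, had both probe sets above the median in fat. Probe set 1382958_at stood at the 58.5 to 60.5 percentile in controls and the 58.1 to 59.3 percentile in restricted rats. Probe set 1387681_at stood at 52.4 to 60.8 and at 51.5 to 52.6, so most of its values were barely above the cut. The within-group SD of 1382958_at was 0.119, against a median of 0.246 over 1644 probe sets of like mean. For 1387681_at it was 0.560, against 0.201 over 1544. Whether a Ucp3 value above the median shows expression in fat was not tested. The probe set with the higher mean over all arrays, 1382958_at, read 5.81, 5.87, 6.04 and 5.78 in controls and 5.82, 5.55, 5.79 and 5.78 in restricted rats, a difference of -0.14 (SE 0.08, 95% interval -0.32 to 0.05, adjusted p = 0.706, limma). The other, 1387681_at, read 6.11, 4.51, 5.37 and 4.48 in controls and 4.53, 4.26, 4.51 and 4.46 in restricted rats. Its difference was -0.68 (SE 0.36, 95% interval -1.53 to 0.18, adjusted p = 0.706, limma), and it rested on control rats 1 and 3, while the other 2 controls lay among the restricted rats. The probe sets parted mainly on control rats 1 and 3: control rat 3 was the highest on 1382958_at and control rat 1 on 1387681_at. Both ranked the restricted rats in the same order, and both were lowest in restricted rat 2. The log2 of the summed level of the 13 measured skeletal muscle markers, none of them called, was 13.41 to 13.88 in the control arrays of fat and 13.15 to 13.39 in the restricted arrays, so that the groups did not overlap, and control rats 1 and 3 were the highest. Most of that sum was the probe set of Myh1, a myosin heavy chain, which averaged 13.62 in controls and 13.26 in restricted rats and also read a mean of 13.01 in control liver at day 10. Over the 13 markers, 11 of them near background, the median difference was 0.02, and 3 of the 13 were below 0. Myl1 was highest in control rat 4, at 6.40, where 1387681_at read 4.48. The part of the muscle markers in the difference of Ucp3 was not tested. In liver Ucp3 was near background on every array of both days, with values of 2.00 to 2.04 at day 4 and 1.99 to 2.03 at day 10 for the probe set with the higher mean.

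Cidea stood near the top of its arrays in fat, at the 93.7 to 96.5 percentile in controls and the 91.8 to 94.99 percentile in restricted rats. Control rats read 11.33, 10.77, 10.93 and 11.71, and restricted rats 10.33, 10.84, 10.76 and 11.05. The groups overlapped, with restricted rats 1 and 3 below every control. The difference was -0.44 (SE 0.24, 95% interval -1.01 to 0.12, adjusted p = 0.706, limma). Whichever array was left out, the difference stayed between -0.58 and -0.27.

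Ppargc1b read 6.66, 7.46, 6.89 and 6.70 in control fat and 6.62, 7.33, 6.89 and 7.82 in restricted fat. The groups overlapped over most of their range, with restricted rat 4 above every control and restricted rat 1 below every control. The difference was 0.24 (SE 0.30, 95% interval -0.46 to 0.93, adjusted p = 0.706, limma), and without restricted rat 4 it was 0.02.

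Most other markers of brown adipocytes were near background in fat. Of 7 measured brown adipocyte markers 5 were near background in adipose tissue, namely Ucp1, Cox8b, Cox7a1, Elovl3 and Zic1, which read 2.16 to 2.26, 2.87 to 2.96, 1.79 to 1.95, 2.95 to 3.21 and 2.10 to 2.18. Prdm16, a regulator of brown and beige fat, was above the median at 4.93 to 6.55 in controls and 5.09 to 6.44 in restricted rats. Adrb3, the β3-adrenergic receptor of adipocytes, read 11.35 ± 0.38 (SD, n = 4) in controls and 11.52 ± 0.39 (SD, n = 4) in restricted rats. Cidec, a lipid droplet protein of the same family as Cidea, read 13.97, 13.81, 13.83 and 14.25 in controls and 13.55, 13.77, 13.66 and 13.88 in restricted rats (difference -0.25, SE 0.11, adjusted p = 0.689, limma). Cideb, the third member of that family, was near background in fat at 2.31 to 2.38.

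Ucp2 and Cidea were the members above background in liver at day 4, and neither passed the test. There 5.58% of probe sets were called, with 4.53% of genes called higher and 3.97% called lower in restricted rats. Ucp2 read 6.25, 6.23, 6.24 and 6.24 in controls and 6.17, 6.09, 6.53 and 6.22 in restricted rats. Restricted rat 3 lay above every control and the other 3 below every control, and the difference was 0.01 (SE 0.09, 95% interval -0.19 to 0.22, adjusted p = 0.98, limma). Cidea read 5.49, 5.14, 5.66 and 4.94 in controls and 5.80, 5.74, 5.22 and 5.64 in restricted rats, a difference of 0.29 (SE 0.19, 95% interval -0.15 to 0.74, adjusted p = 0.669, limma). With a single array left out it was 0.17, without control rat 4, to 0.42, without restricted rat 3, and was called in no case (adjusted p = 0.369 to 1, limma). Ppargc1b was near background, at 2.77, 3.36, 2.45 and 3.05 in controls and 2.83, 2.83, 2.83 and 2.84 in restricted rats.

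Ucp2 fell in liver at day 10, the only call among the members in the 3 comparisons. Control rats read 7.26, 7.24, 7.00, 7.75 and 7.11, and restricted rats 6.67, 6.80, 6.39, 6.66 and 6.23. All 5 restricted arrays lay below all 5 controls. The difference was -0.72 (SE 0.15, 95% interval -1.07 to -0.37, n = 5 and 5 rats, adjusted p = 0.0159, limma), which is 1.65-fold lower in the restricted rats. With 11.2% of probe sets called in that comparison, and 8.67% of genes called higher and 8.15% called lower, 1 call among 6 members is near the background.

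Ucp2 was lower in restricted rats on each scan day of the day 10 liver arrays, but the difference passed on neither day alone. On the first scan day, with controls 1 to 3 and restricted rats 1 and 2, it was -0.43 (adjusted p = 0.2, limma). On the second, with controls 4 and 5 and restricted rats 3 to 5, it was -1.002 (adjusted p = 0.134, limma). With scan day as a block the difference was -0.71 (adjusted p = 0.0314, limma). The controls were scanned first on each day, so the block does not separate scan order from feeding group. Leaving out any single array gave -0.79 to -0.60, with an adjusted p of 0.0177 to 0.0445.

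Ucp2 is known to be abundant in macrophages and other immune cells, and macrophage markers moved beside it in liver at day 10. Of 14 measured markers of macrophages and Kupffer cells, the resident macrophages of the liver, 10 fell and none rose, with a median difference of -1.03 against 0.00 over all genes. Clec4f, the marker of the list with the highest level there and a lectin of Kupffer cells, read 11.78, 12.02, 11.52, 11.77 and 11.74 in controls and 10.38, 10.61, 10.73, 10.91 and 10.59 in restricted rats (difference -1.12, SE 0.11, adjusted p = 0.000328, limma). The log2 of the summed level of the list was 13.60 to 14.01 in controls and 12.95 to 13.25 in restricted rats. Of the list, Itgam alone was near background in that set. Red blood cell markers moved there as well: of 3 measured, Hbb and Alas2 fell, Slc4a1 was near background, and the median difference was -2.55. Their log2 summed level was 12.60 to 13.88 in controls and 10.14 to 11.91 in restricted rats, with no overlap. The part of either list's cells in the fall of Ucp2 was not tested, and in whole tissue fewer cells of a type and less RNA per cell cannot be told apart.

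At day 4 in liver Ucp2 was not called, while 5 of the 14 markers fell and none rose, with a median difference of -0.57, and the log2 summed level was 13.04 to 13.28 in controls and 12.56 to 12.83 in restricted rats. Without control rat 3, 3 were called in either direction, and in 1 fit of all 26 arrays with a shared spread 8 were called lower and 1 higher. In adipose tissue none of the 14 was called by limma, with 1 higher and none lower at an unadjusted p below 0.05, and the summed level was 14.63 to 15.09 in controls and 14.74 to 14.97 in restricted rats, while Clec4f was near background there.

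**Figure D2:**
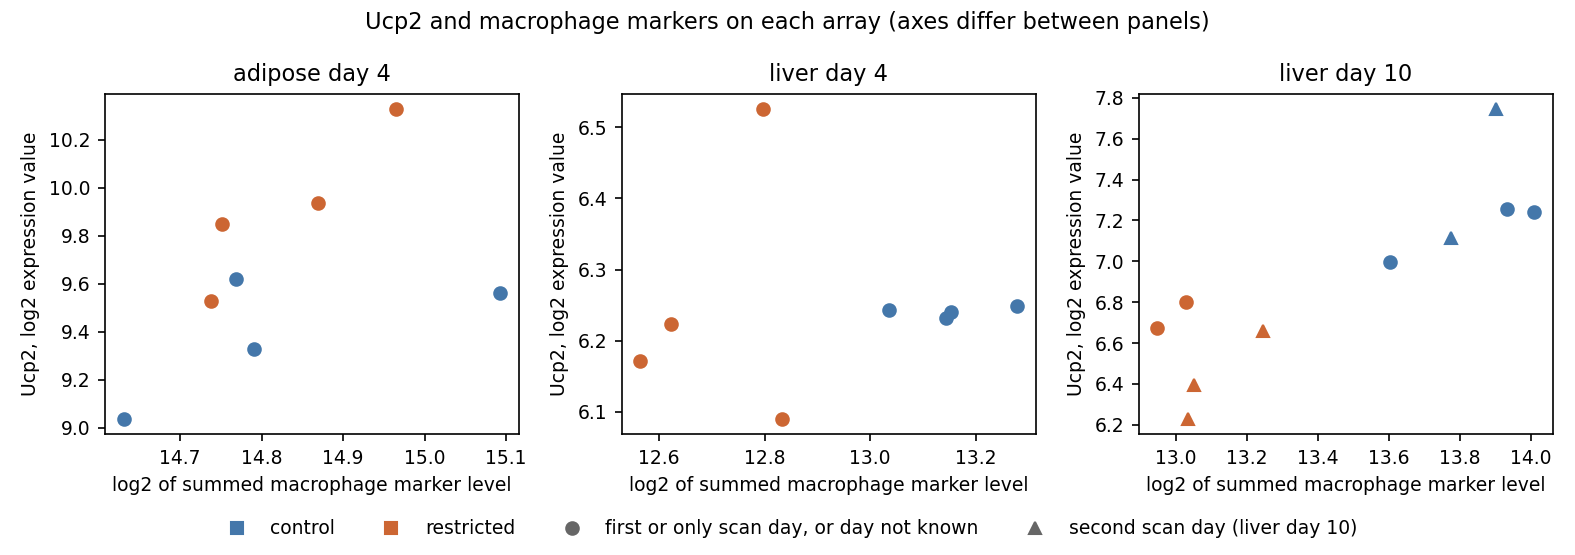
Ucp2 log2 expression value (vertical axis) against the log2 of the summed level of 14 macrophage and Kupffer cell markers (horizontal axis) on each array, with a panel for each set and axes that differ between panels. In liver at day 10 the 5 controls lie at 13.60 to 14.01 for the markers and 7.00 to 7.75 for Ucp2, and the 5 restricted rats at 12.95 to 13.25 and 6.23 to 6.80. At day 4 in liver the marker sums separate the groups and Ucp2 does not.

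The effects on Ucp2 in the 3 sets ran from -0.72 in liver at day 10 through 0.01 in liver at day 4 to 0.53 in adipose tissue, and the differences between these effects did not pass. The effect at day 10 minus that at day 4 in liver was -0.73 (SE 0.20, 95% interval -1.15 to -0.31, adjusted p = 0.131, limma), in a test that called 0.654% of probe sets. The day 4 effect in adipose tissue minus that in liver was 0.51 (SE 0.22, 95% interval 0.04 to 0.99, adjusted p = 0.325, limma), where 3.41% of probe sets were called. For Cidea the corresponding differences were -0.73 (SE 0.43, adjusted p = 0.8) between the liver days and -0.74 (SE 0.32, adjusted p = 0.326) between adipose tissue and liver, both by limma. Day 4 liver and day 10 liver also differed in the length and steps of the restriction. The labels do not say whether a rat gave both day 4 tissues, and the arrays were fitted as separate animals.

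Cidea in liver at day 10 read 6.90, 5.91, 6.47, 6.65 and 6.42 in controls and 6.71, 6.44, 5.50, 6.44 and 5.08 in restricted rats. Restricted rats 3 and 5 lay below every control and the other 3 among them. The difference was -0.44 (SE 0.33, 95% interval -1.19 to 0.32, adjusted p = 0.685, limma). It was 0.15 on the first scan day and -0.86 on the second, and neither passed (adjusted p = 1 and 0.535, limma). Cidec and Cideb, its relatives, were well above background in liver and were not called at either day, with differences of 0.24 (adjusted p = 0.12, limma) and 0.01 (adjusted p = 1, limma) at day 10.

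**Figure D3:**
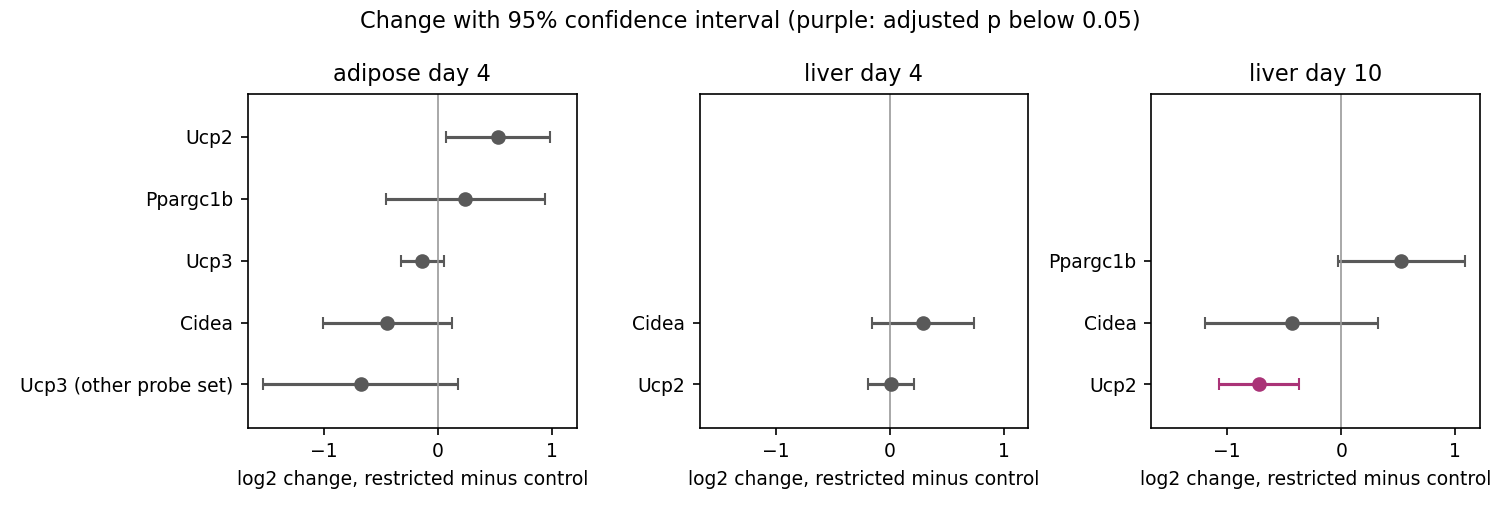
Log2 difference, restricted minus control, with its 95% confidence interval for the member probe sets not near background in each set. For Ppargc1b in liver at day 10 only the restricted mean (3.36) lay above the median of the set, and the control mean (2.83) lay below it. Purple marks an adjusted p below 0.05, which only Ucp2 in liver at day 10 reached, and every other interval except that of Ucp2 in adipose tissue covers 0.

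Ppargc1b in liver at day 10 read 3.00, 3.02, 2.77, 2.401 and 2.95 in controls and 3.02, 3.54, 3.02, 3.01 and 4.20 in restricted rats. The controls and 3 of the 5 restricted rats lay below the median of the set, so the level was low. The difference was 0.53 (SE 0.25, 95% interval -0.03 to 1.08, adjusted p = 0.283, limma), and without restricted rat 5 it was 0.32. Its close relative Ppargc1a, which codes for PGC-1α, a fasting-induced coactivator of liver gluconeogenesis, rose there. Control rats read 3.49, 3.78, 3.50, 3.33 and 3.24 for Ppargc1a, and restricted rats 5.94, 6.39, 6.82, 7.97 and 9.10. All 5 restricted arrays lay above all 5 controls, and Ppargc1a rose by 3.78 (SE 0.55, adjusted p = 0.00206, limma). Its controls stood at the 50.1 to 56.6 percentile, close to the median, so the size of the rise is uncertain.

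At day 4 Ppargc1a also rose in liver. Controls read 4.23, 4.14, 4.35 and 4.94 and restricted rats 5.13, 5.17, 5.34 and 5.42, a difference of 0.85 (SE 0.17, adjusted p = 0.0351, limma), and the call was lost without control rat 2 or without restricted rat 1, 3 or 4. In adipose tissue Ppargc1a was near background at 3.29 to 3.55. The third coactivator of the family, Pprc1, was above background in all sets and was not called in any, with a difference of 0.25 (adjusted p = 0.706, limma) in adipose tissue and 0.16 (adjusted p = 0.955, limma) in liver at day 10. Thus in fat Ppargc1b and Pprc1 were above background with Ppargc1a near it, and in liver at day 4 Ppargc1a and Pprc1 were above background with Ppargc1b near it. Pprc1 hardly varied in liver at day 4, at 4.96 to 5.03 (SD 0.03 in each group). Probe sets there had a median SD of 0.028 at the level of Dio2 and 0.17 at that of Cidea. A Pprc1 value above the median may therefore not show expression in that set. The difference between the effects on Ppargc1a at day 10 and day 4 in liver was 2.93 (SE 0.65, adjusted p = 0.0576, limma). Its size likewise rests on day 10 controls close to the median.

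**Figure D4:**
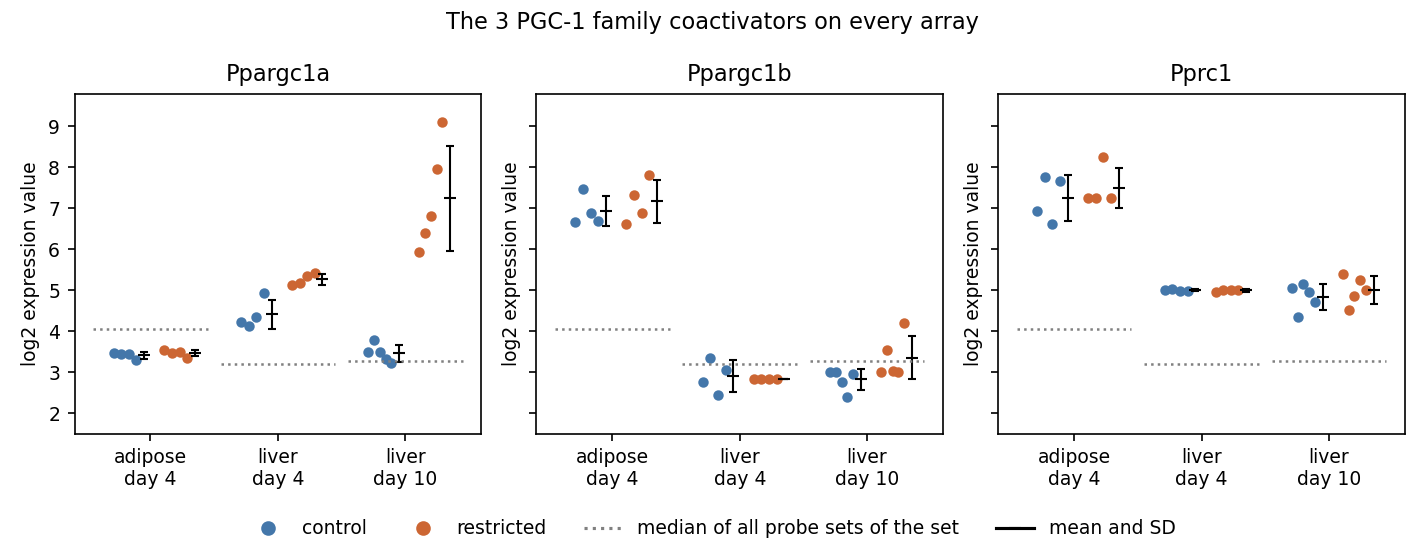
Log2 expression values of the 3 PGC-1 family coactivators on every array, by set and feeding group, with group mean and SD (black) and the median of all probe sets of the set (dotted). Ppargc1a separates the groups in both liver sets, while Ppargc1b and Pprc1 overlap between groups in every set.

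The list of PGC-1 coactivators and their partners held 14 measured genes. None was called in adipose tissue, where its median difference was -0.09, and Esrrg, an estrogen-related receptor of oxidative tissues, had the greatest difference at -1.71 (SE 0.51, adjusted p = 0.404, limma). In liver 4.53% of all genes were called higher and 3.97% lower at day 4, and 8.67% and 8.15% at day 10. The same shares stand beside the counts of the lists below. Of the PGC-1 list 2 genes rose in liver and none fell at each day, which at day 10 is near the share of all genes called. Beside Ppargc1a these were Tfam, a mitochondrial DNA transcription factor, at day 4 (0.39, adjusted p = 0.017, limma) and Esrra, a nuclear receptor that PGC-1α coactivates, at day 10 (1.05, adjusted p = 0.0125, limma). The day 4 count was 0 without restricted rat 1 and in 1 fit of all 26 arrays, and 1 without any other single array except control rat 4. At day 10, 4 were called in either direction without restricted rat 1, and in the fit of all 26 arrays 3 were called higher and 1 lower.

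Dio2 belongs to a family of deiodinases that also holds Dio1, which makes and clears active thyroid hormone in liver. Dio1 was near background in fat at 2.46 to 2.55. Its values in liver at day 4 were 5.63, 5.54, 5.61 and 5.65 in controls and 5.02, 5.22, 5.29 and 4.90 in restricted rats, and Dio1 fell by 0.50 (SE 0.09, adjusted p = 0.0174, limma) with no overlap. At day 10 it read 6.29, 6.16, 6.12, 6.57 and 6.65 in controls and 5.94, 6.19, 6.14, 5.53 and 5.53 in restricted rats, a difference of -0.49 (SE 0.17, adjusted p = 0.114, limma). Dio3, the deiodinase that inactivates the hormone, was near background in all sets.

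Of 12 measured genes of deiodination and thyroid hormone response, none was called in adipose tissue. Hr, a corepressor of the thyroid hormone receptor, had the greatest difference there at -0.96 (SE 0.23, adjusted p = 0.29, limma). In liver 1 rose and 4 fell at day 4, and 2 rose and 3 fell at day 10. Me1, a lipogenic malic enzyme, fell by 4.21 at day 4 (adjusted p = 0.00403) and by 2.26 at day 10 (adjusted p = 0.00601), both by limma. Thrsp, also lipogenic, fell by 1.22 and by 0.99, and Slc16a10, a transporter of aromatic amino acids and thyroid hormone, rose by 2.42 and by 1.78. Klf9, a transcription factor induced by thyroid hormone and glucocorticoids, rose at day 10 by 1.54 (adjusted p = 0.0119, limma) and differed by 0.32 at day 4 (adjusted p = 0.429, limma). Several of these genes also answer to insulin and feeding. Without control rat 3 the count at day 4 was 3, and at day 10 it was 3 without control rat 2, control rat 3 or restricted rat 2.

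Uncoupling proteins belong to the mitochondrial solute carriers, and other carriers changed in liver. Of 20 measured carriers none was called in adipose tissue, with a median of -0.17. Slc25a10, the dicarboxylate carrier, and Slc25a1, the citrate carrier of lipogenesis, had the greatest differences in fat at -0.85 and -0.75 (adjusted p = 0.402 and 0.408, limma). At day 4 in liver 5 rose and 1 fell. Slc25a42, a coenzyme A carrier, rose by 0.93, Slc25a33, a pyrimidine nucleotide carrier, rose by 0.67, and Slc25a1 fell by 0.99 (adjusted p = 0.00426, 0.0193 and 0.00589, limma).

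At day 10 in liver 10 carriers rose and 2 fell, with a median of 0.21. Slc25a33 rose by 2.21, Slc25a25, an ATP-magnesium and phosphate carrier, by 1.21, Slc25a22, a glutamate carrier, by 1.03 and Slc25a42 by 0.79 (adjusted p = 0.00539, 0.0433, 0.00494 and 0.0394, limma). The 12 calls became 6 without control rat 2 and 7 without restricted rat 3 or without restricted rat 4. Slc25a20, which carries acylcarnitines into mitochondria for fatty acid oxidation, rose in liver by 0.54 at day 4 (adjusted p = 0.00873, limma) and by 0.40 at day 10 (adjusted p = 0.0319, limma). In fat its values were 9.21 to 9.44 in controls and 9.15 to 9.39 in restricted rats. Slc25a27 and Slc25a14, named uncoupling proteins 4 and 5 in older usage, were not called in any set, and Slc25a27 was near background in all.

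Of 14 measured fatty acid responsive genes that are known to move with Ucp2 and Ucp3, none was called in fat. There Pdk4, which restrains glucose oxidation in fasting, read 10.38, 8.95, 9.68 and 8.99 in controls and 11.24, 11.28, 10.98 and 10.95 in restricted rats. Its groups did not overlap, yet the difference of 1.61 (SE 0.32) did not pass (adjusted p = 0.206, limma). Angptl4, an inhibitor of lipoprotein lipase, differed by 1.00 (adjusted p = 0.295, limma). In liver 5 rose and 1 fell at day 4, and 4 rose and 1 fell at day 10. Cpt1a, the gate of fatty acid entry into mitochondria, rose by 1.29 and by 1.34 (adjusted p = 0.000409 and 0.0132), and Plin2, a lipid droplet coat protein, fell by 2.396 and by 1.61 (adjusted p = 0.00479 and 0.0317), all by limma. At day 10 the 5 calls became 2 without control rat 1, 2 or 5 or restricted rat 3, and 3 without restricted rat 2 or 4.

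The adrenergic route to Ucp1 and Dio2 was represented by 14 measured genes. None was called in fat, where Prkar2b, a regulatory subunit of protein kinase A in adipocytes, had the greatest difference at -0.45 (adjusted p = 0.469, limma). In liver 1 rose and 2 fell at day 4, and 3 fell at day 10. Prkaca, the catalytic subunit, fell by 0.83 and by 0.95 (adjusted p = 0.000288 and 0.000515, limma), and Gnas, the stimulatory G protein, by 0.28 and by 0.37 (adjusted p = 0.00463 and 0.00167, limma). Pde3b, which breaks down cAMP, rose by 0.57 at day 4 (adjusted p = 0.0106, limma).

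The list of the respiratory chain, which also held ATP synthase genes, had 20 measured genes. In fat its median difference was -0.41 with none called, against 0.01 over all genes, and Ndufs1 and Ndufs3 of complex I had the greatest differences at -0.66 and -0.65 (adjusted p = 0.337 and 0.189, limma). All 20 differences in fat were below 0, 12 of them at an unadjusted p below 0.05, and 14 were called lower in 1 fit of all 26 arrays with a shared spread. The summed level of the skeletal muscle markers in fat, given beside Ucp3, was also lower in every restricted array than in any control. The median difference of those 13 markers was 0.02, with 3 of them below 0 and 11 near background. Of the 9 hepatocyte markers 6 were near background in fat, where differences cannot be measured. Over all 9 the median difference was -0.55, with 8 of 9 below 0 and none called. Their log2 summed level in fat was 13.83 to 14.60 in controls and 13.16 to 14.26 in restricted rats. The part of either list in the respiratory chain differences was not tested. In liver none was called by limma at day 4, where 4 were higher and 3 lower at an unadjusted p below 0.05, and 15 rose and none fell at day 10, with a median of 0.27. The day 4 count was 1 without control rat 3 and 2 without restricted rat 4. Uqcrfs1, the iron-sulphur subunit of complex III, rose by 0.42 (adjusted p = 0.000209, limma) and Ndufs3 by 0.49 (adjusted p = 0.00269, limma). Within the scan days 3 and 2 of the 20 were called.

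The wider list of brown and beige adipocyte genes held 25 measured genes, of which 13 were near background in fat and none was called. Nr4a1, an adrenergic immediate early gene, had the greatest difference at 1.25 (SE 0.45, adjusted p = 0.546, limma), followed by Cpt1b, the muscle and brown fat form of carnitine palmitoyltransferase, at -0.79 (SE 0.31, adjusted p = 0.606, limma). In liver Ppargc1a was the single call at day 4. At day 10 Ppargc1a rose while Gk, glycerol kinase, fell by 1.84 (adjusted p = 0.000264, limma) and Ckb, a creatine kinase, fell by 0.32 (adjusted p = 0.0491, limma). Neither of these liver counts stands above the share of all genes called on its day.

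**Figure D5:**
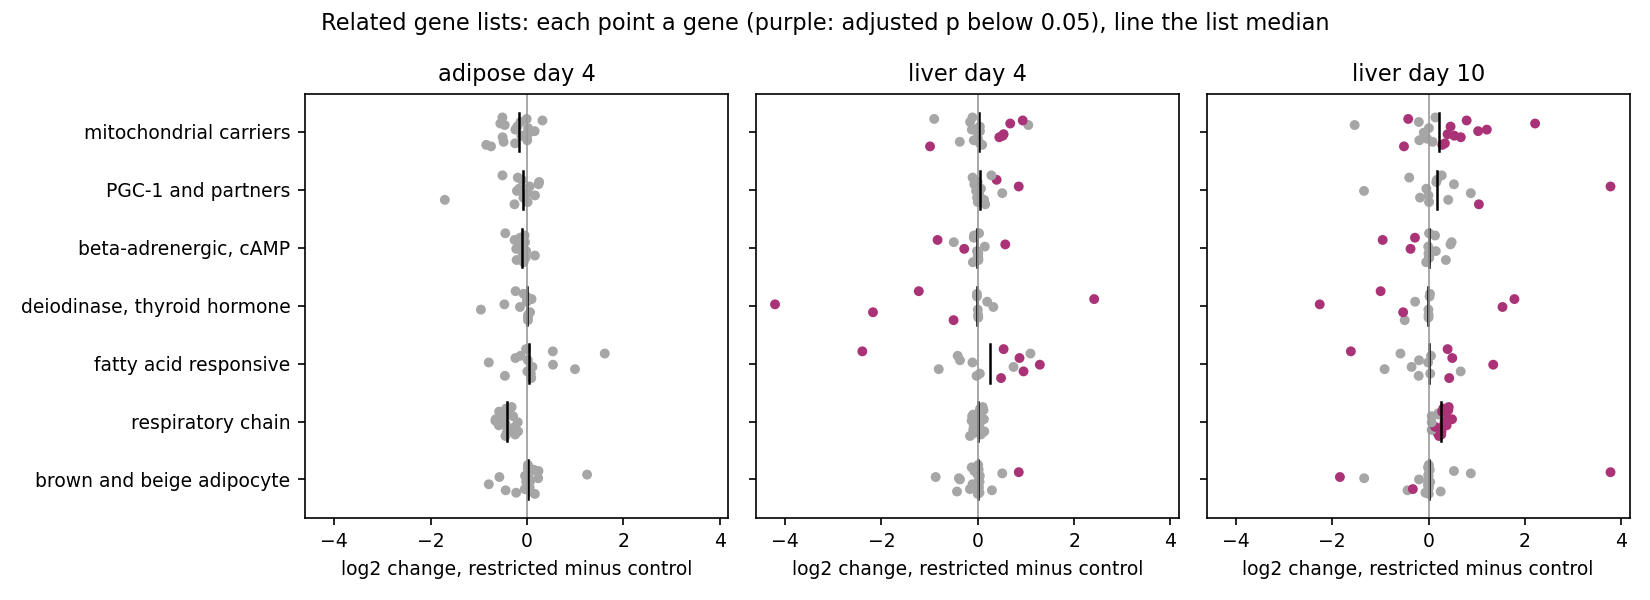
Log2 difference, restricted minus control, of each measured gene of 7 related lists in the 3 sets, with the list median as a black line and called genes in purple. No gene is called in adipose tissue, where the respiratory chain median is -0.41, and in liver at day 10 the respiratory chain holds 15 purple points, all above 0.

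At an unadjusted p below 0.05 in fat, the lists with no call held 6 carriers, 2 PGC-1 partners, 1 deiodination or thyroid hormone gene and 2 adrenergic genes, all lower in restricted rats. They also held 4 fatty acid responsive genes that were higher and 3 that were lower, and 1 brown or beige gene that was higher and 2 that were lower. In 1 fit of all 26 arrays with a shared spread, which takes the spread in liver for that in fat too, these lists had 4, 2, 1, 2, 3 and 2 calls in the same order, and none was a member gene.

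Over the 26 arrays, each centred on the mean of its set, the genes most like Ucp2 were Vsir (r = 0.793), Unc93b1 (0.786), Ifitm1 (0.780), Zmiz2 (0.776) and Cd22 (0.754). These correlations are descriptions over arrays that share a tissue, a day and a feeding group, and they include the group differences. Centred on the mean of the feeding group as well, they were 0.584, 0.461, 0.583, 0.314 and 0.671. Vsir codes for an immune checkpoint protein, Unc93b1 for a chaperone of endosomal Toll-like receptors, Ifitm1 for an interferon-induced membrane protein and Cd22 for a B cell lectin. On day 10 in liver Unc93b1, Ifitm1 and Zmiz2 fell by 0.70, 0.79 and 0.86 (adjusted p = 0.00109, 0.00042 and 0.000735, limma), while Vsir and Cd22 were not called.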

How the data were processed

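The submitters' processing notes name R 2.4.1, the affy package 1.12.2, GCRMA 2.6.0 and RMA. Whether RMA or GCRMA made the values is not given in the sources used here. Expression was deposited on a log2 scale, per the labels, and the 3 sets of arrays were pre-processed apart. The deposited scanner records were used to order scans and find scan days, and no such records were used for liver at day 4.

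The table held 31099 probe sets, of which 57 were Affymetrix controls and left out. Probe sets were named by GEO's platform annotation, updated through the gene ID: 20826 had 1 symbol, 436 several and 9780 no gene named here. A gene is shown by its probe set with the highest mean over the 26 arrays. Within a set, restricted and control arrays were compared by limma (3.58.1, R 4.3.3; two-sided), adjusted by Benjamini-Hochberg across 31042 probe sets and called below 0.05. An interaction contrast in 1 fit of the sets involved tested whether effects differed. The code was tested on simulated data.

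Members, lists and tests were chosen with earlier results of these data known. Named from each list were up to 4 called genes by size, or up to 2 by size where none was called, with Ppargc1a, Cidec, Cideb, Dio1 and Slc25a20 as relatives of members, the 5 genes most like each called member, and the highest marker of a list. Genes beyond this rule (Adipoq, Apoa1, Pprc1, Dio3, Adrb3, Prdm16, Slc25a14, Slc25a27, Myl1, Itgam, the brown markers near background) were chosen after their values were seen. Each array is treated as a separate animal, as the series text counts them. The number of arrays limits the precision. Figures used Python 3.11.15 with matplotlib 3.10.9.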

Additional observations from a re-analysis of the deposited data

Results flagged for a closer look

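Of 42 groups of a member probe set, 3 held an array whose gap to its nearest neighbour was large against the range of the group by Dixon's criterion, and chance alone would single out about 1 in 20 groups. In adipose tissue control rat 4 was the lowest of its group for Ucp1 (2.16, ratio of gap to range 0.885) and for Dio2 (2.23, ratio 0.853). Both probe sets were near background, and the same array was also the lowest control for the near-background probe sets of Cox8b (2.87) and Zic1 (2.10). For the main probe set of Ucp3 restricted rat 2 in adipose tissue was the lowest at 5.55, with a ratio of 0.836. The other Ucp3 probe set was also lowest in that rat, at 4.26. Without restricted rat 2 the difference of the main Ucp3 probe set was -0.08 in place of -0.14, and neither passed the test.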

How the results depend on the processing

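The number of probe sets called in adipose tissue was fragile. From 17 it became 3 with each array centred on its median, 9 with quantile normalization, 29 with dim probe sets left out, 0 with the replicate number as a block, 1389 in 1 fit of all 26 arrays with a shared spread, and 0 to 15 with an array left out. No member was called in adipose tissue under any of these settings, and the adjusted p of Ucp2 ranged from 0.0806 to 0.784. In liver at day 4 the 1732 probe sets became 987 with the replicate block and 1091 to 1744 with an array left out, the lowest without restricted rat 1. In liver at day 10 the 3471 became 567 and 1240 within the first and the second scan day. Ucp2 in liver at day 10 was -0.43 and -1.002 within these scan days and not called. It was called under the 17 other settings, with an adjusted p of 0.0156 under the replicate block. Ucp2 in liver at day 4 changed sign without restricted rat 3, to -0.0796, and ranged from -0.0796 to 0.0654 with an array left out. Cidea in liver at day 10 changed sign on the first scan day, to 0.15. The cause was not tested for any of these. No scan day could be tested in adipose tissue or in liver at day 4. Replicate numbers showed no clear pairing of the arrays. The correlation of same-numbered arrays ran from -0.381 to 0.264 in adipose tissue and from -0.0832 to 0.0988 in liver at day 10. No set had all pairs above 0.1. In liver at day 10, however, 3 of 5 controls were most like the restricted array of their own number, against 1 of 4 in each day 4 set. A pairing in that set is therefore not settled. Differences of probe sets near background cannot be measured, whatever the setting.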

Other observations

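The day 10 liver array of restricted rat 5 held the lowest Ucp2 (6.23) and Cidea (5.08) and the highest Ppargc1b (4.20) and Ppargc1a (9.10) of its group. Its mean correlation with the other arrays of the set was 0.9894, the lowest of the 10, whose others lay between 0.9916 and 0.9935. Without it the difference of Ucp2 was -0.64 (adjusted p = 0.0342, limma), that of Cidea -0.20 and that of Ppargc1b 0.32.

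The adipose values of Cidea and Ppargc1b were spread more widely within groups than those of most probe sets at a like level. The within-group SD was 0.367 for Cidea, against a median of 0.174 over 1184 probe sets of like mean, and 0.455 for Ppargc1b, against 0.242 over 2101.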
